A study of Caenorhabditis elegans with 50 samples.

Results

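The genes described here are lea-1, dur-1, gpdh-1, gpdh-2, tps-1, tps-2 and hmit-1.1 of the nematode Caenorhabditis elegans, which serve desiccation survival and the handling of the osmolytes trehalose, glycerol and inositol. They were taken by name from a table of 34207 gene entries measured in 50 RNA-seq libraries, 5 for each of 10 strains. Of the 7 genes, 5 have an entry of their own. tps-1 is listed only together with ZK54.3 and tps-2 only together with arl-3, so those 2 entries are described as shared and credited to neither gene.

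The strains are built on mutants of daf-2, the insulin/IGF-1 receptor gene, and of glp-1, a Notch receptor gene needed for germline proliferation, each with and without daf-16, the FoxO transcription factor gene that acts downstream of both. The daf-2 family holds the mutant daf-2(e1370) with daf-16(mg54);daf-2(e1370) and also daf-16(mu86);daf-2(e1370), then the mutant daf-2(e1368) with daf-16(mg54);daf-2(e1368) and also daf-16(mu86);daf-2(e1368), and wild type (WT). All were reared at 15 °C for 72 hours before a shift to 20 °C. The glp-1 family holds the mutant glp-1(e2141) with daf-16(mg54);glp-1(e2141) and also daf-16(mu86);glp-1(e2141). It spent 48 hours at 25 °C, a temperature at which the glp-1 mutation removes the germline. Whole animals were collected on day 1 of adulthood, so every value is a mixture of all tissues, and fewer cells of a type and less RNA per cell cannot be told apart. Eggs of daf-2(e1370) were laid with a lead of 6 hours over control strains, and an effect of that lead cannot be told apart from the genotype. No wild type kept at 25 °C is analysed here, and germline loss, temperature and genotype differ together between the families. The daf-16(mg54) allele is a nonsense mutation and daf-16(mu86) a deletion, and below each is called a double when combined with daf-2 or glp-1. The labels call the 5 libraries of a strain separate biological samples.

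As background, lowered insulin/IGF-1 signalling lets DAF-16 enter nuclei and change transcription. The same pathway controls entry into the dauer larva, a stage that survives drying and osmotic shock. LEA proteins are hydrophilic proteins that accumulate in drying cells and limit protein aggregation, while trehalose and glycerol are small solutes that hold water and protect membranes and proteins. In C. elegans, glycerol is the main osmolyte built up in high salt, and its synthesis depends on glycerol-3-phosphate dehydrogenase.

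The values are estimated fragment counts, scaled here to library size within a family as counts per 1000000 (CPM). Depth was 13822805 to 23811780 fragments in the glp-1 strains and 19893281 to 34247043 in the daf-2 family, except for daf-2(e1370) replicate 2, which held 2367909. The labels were checked against the targeted genes. daf-16 averaged 103 and 105 CPM in the mg54 doubles of daf-2(e1368) and daf-2(e1370), against 201 and 208 CPM in those daf-2 mutants, and 160 CPM in the mg54 double of glp-1(e2141), against 202 CPM in glp-1(e2141). In the mu86 doubles daf-16 averaged 184 to 432 CPM, while H36N01.2,H36N01.3,R13H8.4, an entry of the daf-16 locus, averaged 132 to 276 CPM there and 0.282 to 3.88 CPM in the other strains. The 3.88 CPM of daf-2(e1370) came mostly from its shallow replicate 2, with 41 fragments where the mutant's other 4 libraries had 3 to 9. Scaled to library totals alone, that was 17.3 CPM in replicate 2 against 0.116 to 0.428 CPM in the other 4. Where the fragments of this entry in replicate 2 came from was not tested. The summed level of 12 oocyte and germline markers was 8.26 to 26.5 CPM in the glp-1 strains and 5220 to 10200 CPM in the daf-2 family. Of these 12, 3 were at 0 in every daf-2 family library outside daf-2(e1370), and none in daf-2(e1370). Its sums, 7090 to 10200 CPM, therefore hold more markers than those of the other strains of that family, which reached at most 9220 CPM. Sperm markers summed to 9.07 to 20.8 CPM in the glp-1 strains and 55.5 to 2300 CPM in the daf-2 family. Intestine markers summed to 3220 to 7950 CPM in the glp-1 strains and 1990 to 4210 CPM in the daf-2 family, hypodermis markers to 6660 to 9240 CPM in the glp-1 strains and 672 to 3150 CPM in the daf-2 family, and body wall muscle markers to 3500 to 9100 CPM in the glp-1 strains and 1000 to 5830 CPM in the daf-2 family. Pharynx markers summed to 15.1 to 191 CPM in the glp-1 strains and 7.87 to 94.5 CPM in the daf-2 family, and neuron markers to 260 to 357 CPM in the glp-1 strains and 62.5 to 160 CPM in the daf-2 family.

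lea-1, which encodes a late embryogenesis abundant protein that worms use to survive drying, was 9.31-fold higher in daf-2(e1370) than without daf-16, and 6.87-fold higher for the daf-2(e1368) allele. gpdh-1, the glycerol-3-phosphate dehydrogenase induced by high salt, fell in both. The entries shared by the trehalose synthase genes rose moderately in daf-2(e1370). Their smaller rises in daf-2(e1368) lost the call on leaving out most single libraries. In both alleles gpdh-2, hmit-1.1 and dur-1 did not pass the test against the daf-16 doubles. In glp-1(e2141) none of the 5 genes with entries of their own passed it. The shared entry arl-3,tps-2 passed there, a call that also ended on leaving out most single libraries.

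lea-1 lies at V:9943314-10239917 on build ce10, the span that the table gives to a bundle of 81 entries around it. It read 1810, 2260, 2700, 2160 and 2300 CPM in the 5 daf-2(e1370) libraries, against 254, 248, 206, 237 and 265 CPM in the mg54 double and 248, 241, 225, 239 and 249 CPM in the mu86 double. In daf-2(e1368) it read 1560, 2060, 1740, 1870 and 1420 CPM, against 196, 247, 266, 258 and 254 CPM in its mg54 double and 249, 263, 248, 278 and 258 CPM in its mu86 double. WT read 298, 308, 311, 270 and 347 CPM. Every library of either daf-2 mutant stood several-fold above every library of the doubles and of WT, with no overlap. The shallow daf-2(e1370) replicate 2 gave the highest value of its strain.

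In log2 terms lea-1 was higher by 3.22 ± 0.08 (SE) in daf-2(e1370) than in the mean of its doubles, a 9.31-fold difference with a 95% interval of 3.05 to 3.38 on the log2 scale (edgeR quasi-likelihood test, Benjamini-Hochberg adjusted p = 1e-24). Without the shallow replicate 2 of daf-2(e1370) it was 3.15 (edgeR adjusted p = 7.81e-24). It was 3.21 against the mg54 double alone and 3.22 against the mu86 double alone. In daf-2(e1368) the difference was 2.78 ± 0.08, or 6.87-fold (adjusted p = 1.04e-22). Of the 11774 entries tested in the daf-2 family, lea-1 ranked 1 by p in both of these contrasts, and 107 and 33 by size among the higher ones. Against WT, lea-1 was higher by 2.87 ± 0.10 in daf-2(e1370) (adjusted p = 4.26e-20) and by 2.49 ± 0.10 in daf-2(e1368) (adjusted p = 5.01e-18).

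**Figure D1:**
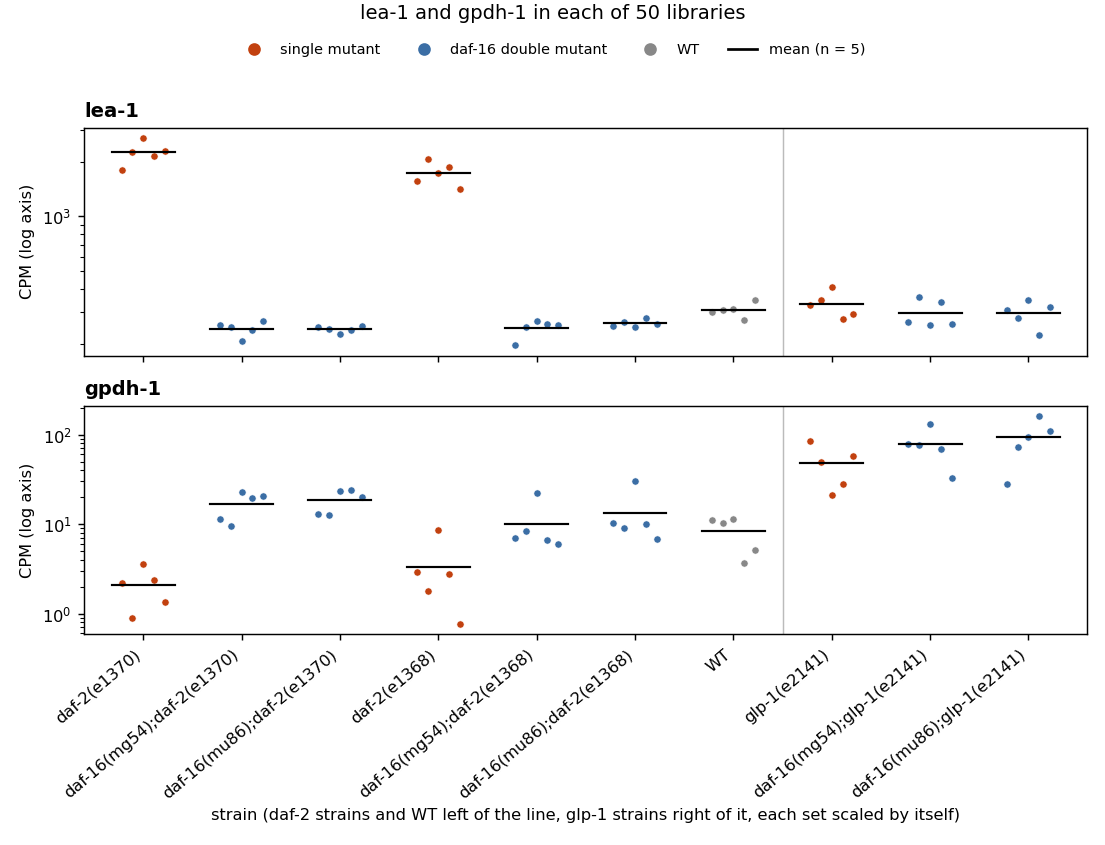
lea-1 and gpdh-1 in every library, as CPM on a log axis, with 1 point per library and a line at the mean of each strain. For lea-1 the daf-2(e1370) and daf-2(e1368) libraries sit at 1420 to 2700 CPM and all other libraries at 196 to 408 CPM, while for gpdh-1 the daf-2(e1370) libraries are the lowest strain mean and the glp-1 strains the highest.

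Without daf-16 the lea-1 level lay slightly under WT. The doubles of daf-2(e1370) averaged 242 ± 22.4 CPM with mg54 and 240 ± 9.61 CPM with mu86 (SD, n = 5 each), against 307 ± 27.7 CPM in WT (SD, n = 5). Their mean was lower than WT by a log2 difference of -0.35 ± 0.08 (edgeR adjusted p = 0.0189), a call lost when all 50 libraries were fitted together, without replicates numbered 2, without WT replicate 4 and without replicate 1 of the mu86 double. The doubles of daf-2(e1368) averaged 244 ± 28.0 CPM with mg54 and 259 ± 12.2 CPM with mu86, at -0.29 ± 0.08 against WT (edgeR adjusted p = 0.191).

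In the germline-less strains lea-1 read 326, 349, 408, 273 and 291 CPM in glp-1(e2141), 263, 363, 253, 337 and 256 CPM in its mg54 double and 307, 276, 347, 223 and 318 CPM in its mu86 double. The 3 strains overlap throughout. The difference of glp-1(e2141) from the mean of its doubles was 0.16 ± 0.12, with a 95% interval of -0.10 to 0.43 (edgeR adjusted p = 0.562). In a fit over the strains of both backgrounds, the daf-16 effect on lea-1 in daf-2(e1370) exceeded that in glp-1(e2141) by 3.04 ± 0.15 (edgeR adjusted p = 2.28e-20). The interval in glp-1(e2141) therefore ends far below the effect seen in either daf-2 allele.

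dur-1, named for its higher level in dauer larvae, lies at IV:9921915-9928208 in a locus of its own. It read 11.1, 10.7, 12.2, 18.1 and 13.8 CPM in daf-2(e1370), against 4.4, 3.32, 13.3, 13.5 and 13.4 CPM in the mg54 double and 6.89, 4.24, 12.8, 12.7 and 11.9 CPM in the mu86 double. Replicates 0 and 1 of both doubles lay under every daf-2(e1370) library, and the other 3 of each double overlapped them. The difference from the mean of the doubles was 0.46 ± 0.28 (edgeR adjusted p = 0.233).

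The same 4 libraries of the doubles stood apart in tissue markers. Their summed sperm markers were 55.5 to 447 CPM, against 1300 to 1910 CPM in the other 6 libraries of these doubles, and the hypodermis sums were 672 to 1440 CPM against 2350 to 2910 CPM. Body wall muscle sums were 1000 to 1840 CPM against 3280 to 3700 CPM. Oocyte and germline sums went the other way, at 8290 to 9000 CPM in these libraries against 5400 to 7230 CPM. Without these 4 libraries dur-1 stood at 0.04 against the doubles (edgeR adjusted p = 0.927), where all libraries gave 0.46. lea-1 then stood at 3.26 and gpdh-1 at -3.56, and gpdh-2, uncalled with all libraries, at 0.19 with a call (edgeR adjusted p = 0.0252). Replicates 0 and 1 of daf-2(e1370) itself were kept there. They also had the lowest sperm sums of their strain, 974 and 806 CPM against 1300 to 2200 CPM, so libraries were left out on the side of the doubles only.

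In daf-2(e1368) dur-1 stood at -0.11 ± 0.29 against its doubles, with an interval of -0.69 to 0.48 (edgeR adjusted p = 0.896), and the WT libraries at 9.21 to 13.5 CPM overlapped those of both daf-2 mutants. In the glp-1 strains it read 22.2, 31.9, 40.8, 41.3 and 31.9 CPM in glp-1(e2141), 29.2, 39.7, 18.2, 42.4 and 30.5 CPM in the mg54 double and 37.9, 27.1, 36.5, 12 and 41.1 CPM in the mu86 double. These strains overlap, at 0.10 ± 0.25 against the doubles (edgeR adjusted p = 0.904).

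Trehalose is made from glucose-6-phosphate and UDP-glucose by trehalose-6-phosphate synthase, which tps-1 and tps-2 encode. The entry ZK54.3,tps-1 carries the span X:17176534-17563658, a bundle of 71 entries. It read 66.4, 53.8, 75.1, 75.5 and 61.6 CPM in daf-2(e1370), against 32.6, 32.7, 34.9, 39.3 and 38.9 CPM in the mg54 double, 33.9, 30.7, 37, 35.3 and 38.2 CPM in the mu86 double and 34.7, 31.6, 39.5, 32.3 and 33.7 CPM in WT. The daf-2(e1370) libraries all lay above those 3 strains, which overlap each other. The entry rose by 0.91 ± 0.08 against the mean of the doubles, or 1.88-fold (edgeR adjusted p = 2.82e-10), and by 0.95 ± 0.10 against WT (edgeR adjusted p = 9.66e-09). Without daf-2(e1370) replicate 2 these were 0.87 (edgeR adjusted p = 1.2e-09) and 0.90 (edgeR adjusted p = 2.77e-08).

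The entry arl-3,tps-2 lies at II:14600150-14610337 beside 1 other entry, and arl-3 encodes an Arf-like small GTPase. It read 210, 177, 174, 206 and 207 CPM in daf-2(e1370), against 53.5, 48.1, 75.3, 83.7 and 85.3 CPM in the mg54 double, 61.3, 53.4, 80.9, 82.8 and 82.8 CPM in the mu86 double and 74.8, 71, 94.1, 149 and 147 CPM in WT. Again each daf-2(e1370) library exceeded all 15 of the others, while WT itself split into 3 libraries at 71 to 94.1 CPM and replicates 3 and 4 at 147 to 149 CPM. The rise was 1.47 ± 0.16 against the mean of the doubles, or 2.76-fold (edgeR adjusted p = 1.73e-08), and 0.87 ± 0.20 against WT (edgeR adjusted p = 0.00147). Without daf-2(e1370) replicate 2 these were 1.51 (edgeR adjusted p = 3.77e-08) and 0.90 (edgeR adjusted p = 0.00167). Replicates 0 and 1 were the lowest libraries of both doubles, and without them the rise against the doubles was 1.26 (edgeR adjusted p = 5.83e-07).

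Smaller differences appeared in daf-2(e1368). There ZK54.3,tps-1 stood at 34.5 to 45.8 CPM, against 29.8 to 39 CPM in the mg54 double and 28.8 to 38.1 CPM in the mu86 double, and arl-3,tps-2 at 92.7 to 155 CPM, against 75.9 to 131 CPM with mg54 and 67 to 88.8 CPM with mu86. Only the last pair did not overlap. The differences from the mean of the doubles were 0.28 ± 0.08 (edgeR adjusted p = 0.0445) and 0.55 ± 0.17 (edgeR adjusted p = 0.0488), and leaving out most single libraries ended either call, with adjusted p up to 0.197 and 0.207. By the rule given below, the replicate numbers pair daf-2(e1368) with its mg54 double. With replicate number as a block over all daf-2 family strains, the differences from mg54 alone were 0.29 (edgeR adjusted p = 0.0155) and 0.41 (edgeR adjusted p = 0.0286), against adjusted p of 0.147 and 0.487 without the block.

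In glp-1(e2141) arl-3,tps-2 read 473, 305, 665, 419 and 381 CPM, against 201, 215, 307, 259 and 315 CPM in the mg54 double and 413, 252, 253, 337 and 309 CPM in the mu86 double. The 3 strains overlap, with glp-1(e2141) replicate 2 the highest of the 15 libraries. The entry rose by 0.65 ± 0.17 against the mean of the doubles (edgeR adjusted p = 0.0358), a call that ended at 0.69 (edgeR adjusted p = 0.0571) without the 3 libraries of this family that stand apart, and on leaving out any of 10 of the 15 single libraries, with 0.46 (edgeR adjusted p = 0.142) without glp-1(e2141) replicate 2. ZK54.3,tps-1 stood at 93.7 to 138 CPM in glp-1(e2141), 78.4 to 95.8 CPM in the mg54 double and 79.9 to 107 CPM in the mu86 double, a difference of 0.32 ± 0.09 (edgeR adjusted p = 0.0609). That difference was called by DESeq2 (DESeq2 adjusted p = 0.0215) and, at 0.26, with all 50 libraries in 1 fit (edgeR adjusted p = 0.0242). It was also called without glp-1(e2141) replicate 3 or without replicate 3 of the mu86 double.

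**Figure D2:**
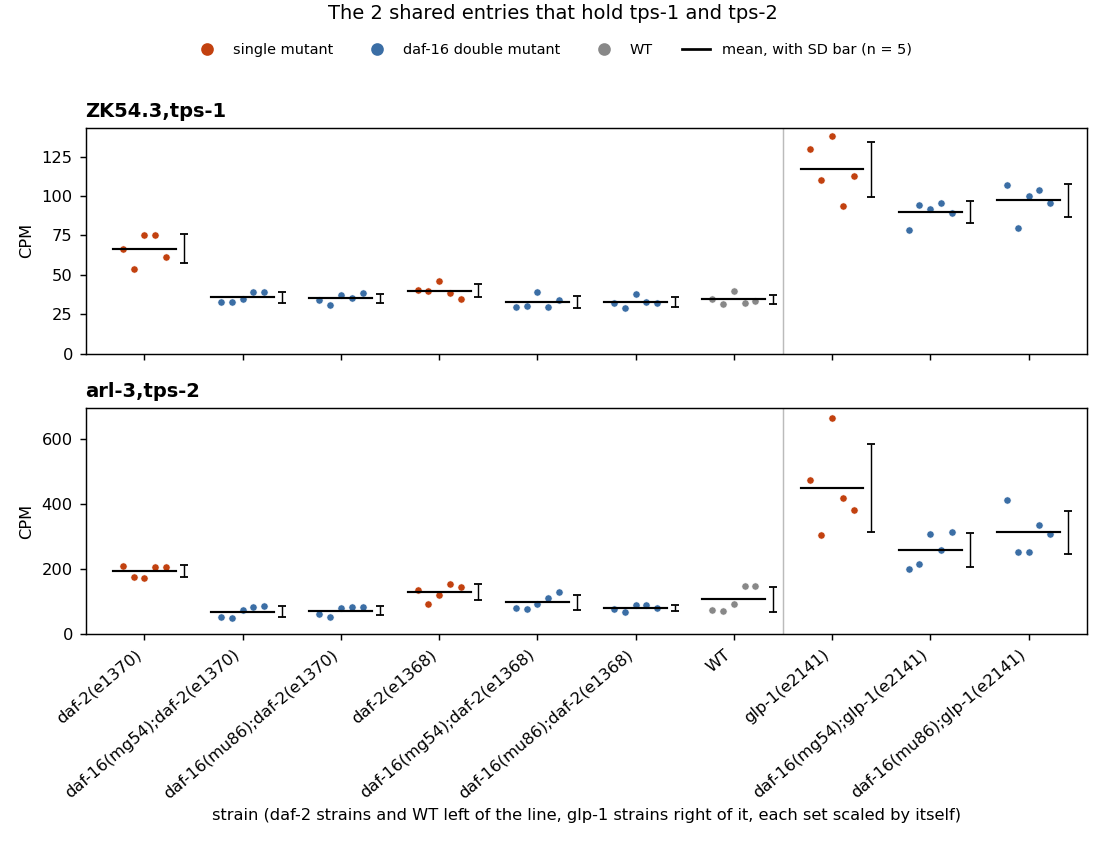
The entries ZK54.3,tps-1 and arl-3,tps-2 in every library, as CPM on a linear axis that starts at 0, with the mean and SD of each strain over 5 libraries. In both panels the daf-2(e1370) libraries lie above all libraries of their doubles and of WT, at 53.8 to 75.5 and 174 to 210 CPM.

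Glycerol is made by reducing dihydroxyacetone phosphate to glycerol-3-phosphate, the step of gpdh-1 and gpdh-2, and then removing the phosphate. gpdh-1 carries the span I:14041614-14212742, a bundle of 34 entries. It read 2.2, 0.889, 3.62, 2.37 and 1.34 CPM in daf-2(e1370), against 11.4, 9.41, 22.9, 19.5 and 20.4 CPM in the mg54 double and 13, 12.8, 23.5, 23.8 and 20.1 CPM in the mu86 double. Each daf-2(e1370) library lay under each library of the doubles, on 8 to 70 fragments per library, with the lowest number in the shallow replicate 2. The difference was -3.23 ± 0.52 against the mean of the doubles, or 9.41-fold lower (edgeR adjusted p = 1.21e-05). Without that library it was -3.35 (edgeR adjusted p = 2.04e-05). Against the mg54 double alone it was -3.16 and against the mu86 double alone -3.31.

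In daf-2(e1368) gpdh-1 read 2.95, 1.79, 8.49, 2.76 and 0.77 CPM, against 7.05, 8.46, 22.2, 6.63 and 6.04 CPM in the mg54 double and 10.4, 9.11, 30.7, 9.98 and 6.86 CPM in the mu86 double. Replicate 2 was the highest library of each of the 3 strains, and through it the daf-2(e1368) range overlapped both doubles. The difference was -1.79 ± 0.45 against their mean, or 3.47-fold lower (edgeR adjusted p = 0.0133, but 0.0543 without daf-2(e1368) replicate 1 and 0.0532 in a fit of only these strains). It was -2.0 ± 0.50 against the mu86 double (edgeR adjusted p = 0.0139), a call lost at -1.46 without replicate 2 of that double (edgeR adjusted p = 0.103) and in a fit of only those strains (edgeR adjusted p = 0.0839). Against the mg54 double it was -1.59 ± 0.49 (edgeR adjusted p = 0.0827), and with the replicate numbers as a block -1.69 (edgeR adjusted p = 0.00213).

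WT read 11.2, 10.3, 11.5, 3.65 and 5.14 CPM of gpdh-1. The daf-2(e1370) libraries were all lower than these, by a log2 difference of -2.15 ± 0.54 (edgeR adjusted p = 0.00375). daf-2(e1368) stood at -1.32 ± 0.49 against WT (edgeR adjusted p = 0.233), and at -1.89 with replicate 2 of every daf-2 family strain left out (edgeR adjusted p = 0.00543). The doubles of daf-2(e1370), at 16.7 ± 5.95 CPM with mg54 and 18.6 ± 5.43 CPM with mu86 (SD, n = 5 each), stood at 1.08 ± 0.43 against WT at 8.35 ± 3.67 CPM (edgeR adjusted p = 0.342).

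The glp-1 strains carried far more gpdh-1 and spread more widely. The gene read 84.1, 49.6, 21.2, 27.9 and 57.8 CPM in glp-1(e2141), 77.8, 77.1, 132, 69.9 and 33.1 CPM in the mg54 double and 27.7, 73, 95.1, 160 and 109 CPM in the mu86 double. All 3 strains overlap, at -0.82 ± 0.40 against the doubles with an interval of -1.68 to 0.03 and no call (edgeR adjusted p = 0.306). The daf-16 effect on gpdh-1 in daf-2(e1370) differed from that in glp-1(e2141) by -2.46 ± 0.61 (edgeR adjusted p = 0.00638).

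gpdh-2, the paralogue that worms keep expressed without salt stress, lies at III:9851219-9859206 with 3 other entries. It read 338, 346, 239, 276 and 309 CPM in daf-2(e1370), against 315, 334, 286, 283 and 275 CPM in the mg54 double, 300, 309, 249, 246 and 253 CPM in the mu86 double and 249, 264, 232, 260 and 243 CPM in WT. The daf-2(e1370) range covers both doubles, and 4 of its 5 libraries exceed every WT library. The difference from the doubles was 0.09 ± 0.07, with an interval of -0.06 to 0.23 (edgeR adjusted p = 0.357). Against WT gpdh-2 was higher by 0.28 ± 0.08 (edgeR adjusted p = 0.0142), a call that was lost without daf-2(e1370) replicate 4 or without WT replicate 0, 2 or 4. It was also lost at 0.23 with all 50 libraries in 1 fit (edgeR adjusted p = 0.265) and in a fit of only those strains (edgeR adjusted p = 0.0571).

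In daf-2(e1368) gpdh-2 read 269 to 294 CPM, against 249 to 292 CPM in the mg54 double and 241 to 276 CPM in the mu86 double, a difference of 0.07 ± 0.07 (edgeR adjusted p = 0.758). In glp-1(e2141) it read 307 to 433 CPM, against 226 to 394 CPM with mg54 and 274 to 468 CPM with mu86, a difference of 0.25 ± 0.14 (edgeR adjusted p = 0.358). The groups overlap in both backgrounds.

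hmit-1.1 encodes a proton-coupled myo-inositol transporter that is induced by high salt in worms, and lies at V:18516490-18523825 in a locus of its own. It read 5.23, 4.69, 7.24, 15.7 and 4.98 CPM in daf-2(e1370), against 5.43, 5.86, 8.46, 7.36 and 5.79 CPM in the mg54 double and 6.3, 6.3, 17.3, 16.2 and 9.51 CPM in the mu86 double. In daf-2(e1368) it read 3.92, 4.35, 16.5, 8.27 and 5.55 CPM, against 3.54, 3.78, 28.3, 7.35 and 4.89 CPM with mg54 and 7.23, 5.1, 51.2, 11.8 and 6.77 CPM with mu86. WT read 5.39, 3.51, 12.5, 4.23 and 5.97 CPM. Single libraries set these ranges, and every strain of the daf-2 family overlaps every other.

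The hmit-1.1 differences from the doubles were -0.17 ± 0.52 in daf-2(e1370) (edgeR adjusted p = 0.831) and -0.70 ± 0.52 in daf-2(e1368) (edgeR adjusted p = 0.66). The interval in daf-2(e1370) ran from -1.23 to 0.89, a range of differences that these libraries do not exclude. In the glp-1 strains it read 132, 59.4, 50.6, 52.1 and 65.5 CPM in glp-1(e2141), 63.4, 49.9, 105, 62 and 36.6 CPM in the mg54 double and 56.4, 90.3, 102, 191 and 172 CPM in the mu86 double. These overlap, at -0.29 ± 0.31 against the doubles (edgeR adjusted p = 0.715).

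**Figure D3:**
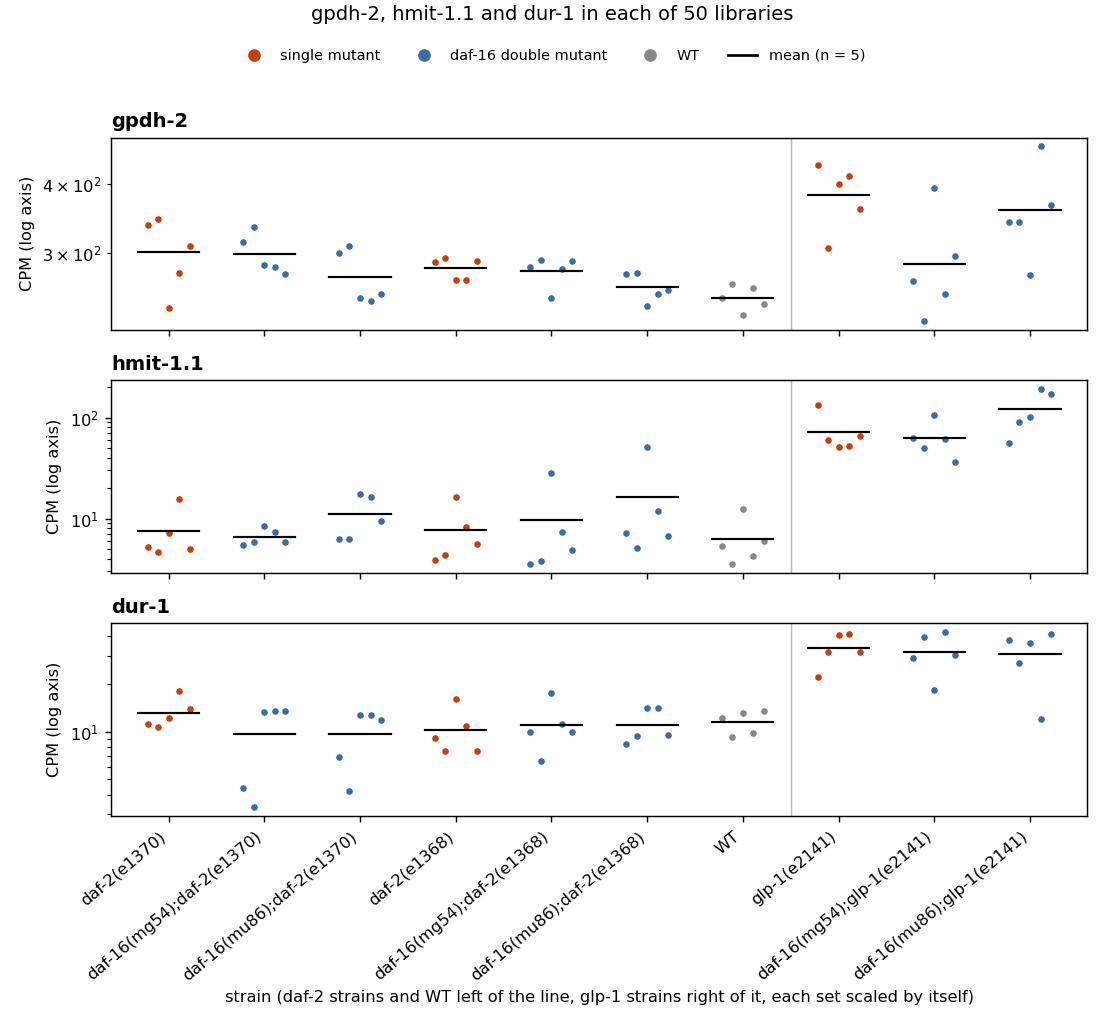
gpdh-2, hmit-1.1 and dur-1 in every library, as CPM on log axes, with 1 point per library and a line at the mean of each strain. The points of each daf-2 or glp-1 mutant overlap those of its doubles in all 3 panels, and all 3 glp-1 strains lie above the 7 daf-2 family strains in mean hmit-1.1 and dur-1.

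Part of the spread of gpdh-1 and hmit-1.1 went with replicate number 2 in the daf-2 family. Replicate 2 was the highest library in 6 of 7 strains for gpdh-1 and in 6 of 7 for hmit-1.1. Over all 7 strains it stood at 1.42 to 3.73 times the median of the other 4 libraries for gpdh-1 and at 1.42 to 7.31 times for hmit-1.1. dur-1 was highest there in 4 strains, gpdh-2 lowest in 5 and lea-1 highest in 2. Of all entries tested, 12.7% were highest in replicate 2 in at least 6 strains, so the 2 genes share this with many others. The daf-2(e1368) doubles with the widest jumps also had the highest sperm marker sums of their strains in replicate 2, 2240 CPM with mg54 against 820 to 1160 CPM in its other libraries and 2300 CPM with mu86 against 1050 to 1680 CPM. Their part in the gpdh-1 and hmit-1.1 values was not tested. Without replicate 2 of all strains gpdh-1 stood at -3.26 against the doubles in daf-2(e1370) (edgeR adjusted p = 3.35e-07) and at -1.97 in daf-2(e1368) (edgeR adjusted p = 0.00078).

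**Figure D4:**
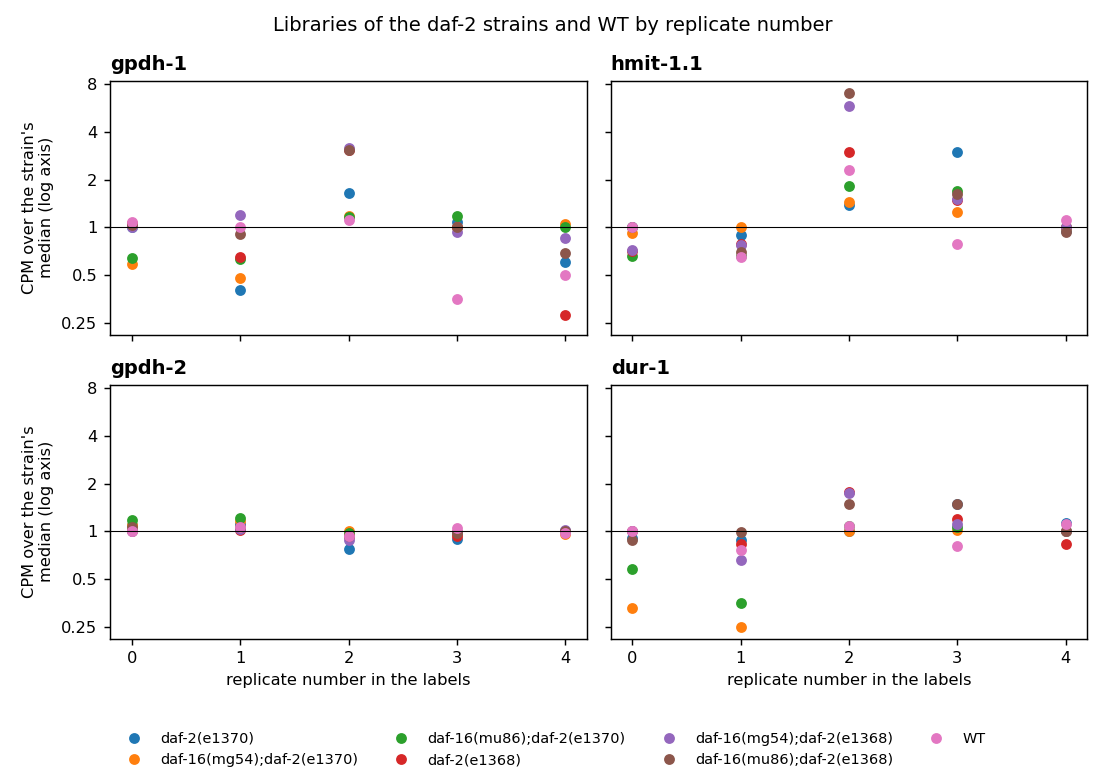
gpdh-1, hmit-1.1, gpdh-2 and dur-1 by replicate number, 0 to 4, in the 7 strains of the daf-2 family, as CPM divided by the median of the strain on a log axis, with 1 point per library and 1 colour per strain. Replicate 2 is the highest point in 6 of 7 strains for gpdh-1 and for hmit-1.1, gpdh-2 stays close to 1, and dur-1 is lowest in replicates 0 and 1 of the daf-2(e1370) doubles.

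A similar split ran through the glp-1 family. glp-1(e2141) replicate 0, replicate 2 of its mg54 double and replicate 3 of its mu86 double stood apart on the first principal component of the within-strain deviations, at -43.0, -42.4 and -54.7, with the other 12 libraries between 0.324 and 19.3 on an axis that holds 34.9% of the variance. gpdh-1, gpdh-2 and hmit-1.1 were each highest of their strain in exactly these 3 libraries, and dur-1 was lowest there, at 22.2, 18.2 and 12 CPM. Of all entries tested in this family, 12% were highest and 10.1% lowest in all 3. Summed intestine markers were 3400, 4130 and 3220 CPM in these libraries, the lowest of each strain. Neuron sums, at 298, 297 and 260 CPM, were also the lowest of each strain there. Hypodermis sums, at 8630, 9240 and 7070 CPM, were the lowest of no strain. The part of these tissues in the result was not tested. Without the 3, gpdh-1 stood at -0.83 (edgeR adjusted p = 0.229) and hmit-1.1 at -0.38 (edgeR adjusted p = 0.422) against the doubles, while gpdh-2 stood at 0.51 against the mg54 double alone (edgeR adjusted p = 0.0284) where all libraries gave 0.41 (edgeR adjusted p = 0.206).

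Counted together, 2 of the 5 genes were called in daf-2(e1370) against the mean of its doubles, lea-1 higher and gpdh-1 lower, where 27.6% of all entries tested were called, 14.3% higher and 13.3% lower. The same 2 genes were called in daf-2(e1368), where 5.01% of entries were called, 3.00% higher and 2.01% lower. In glp-1(e2141) edgeR called 0 of 5, DESeq2 called 0 and 0 had an unadjusted p under 0.05, with 5.02% of entries called, 3.41% higher and 1.62% lower. The median difference over the 5 genes was 0.09 in daf-2(e1370), -0.11 in daf-2(e1368) and 0.10 in glp-1(e2141), against 0.02, 0 and -0.01 over all entries. Libraries did not overlap between the mutant and both doubles for lea-1 and gpdh-1 in daf-2(e1370), where this held for 8.92% of entries. It held for lea-1 in daf-2(e1368), with 3.39% of entries, and for none of the 5 in glp-1(e2141), with 2.25%. All 5 genes and both shared entries passed the filter on low counts in both families.

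**Figure D5:**
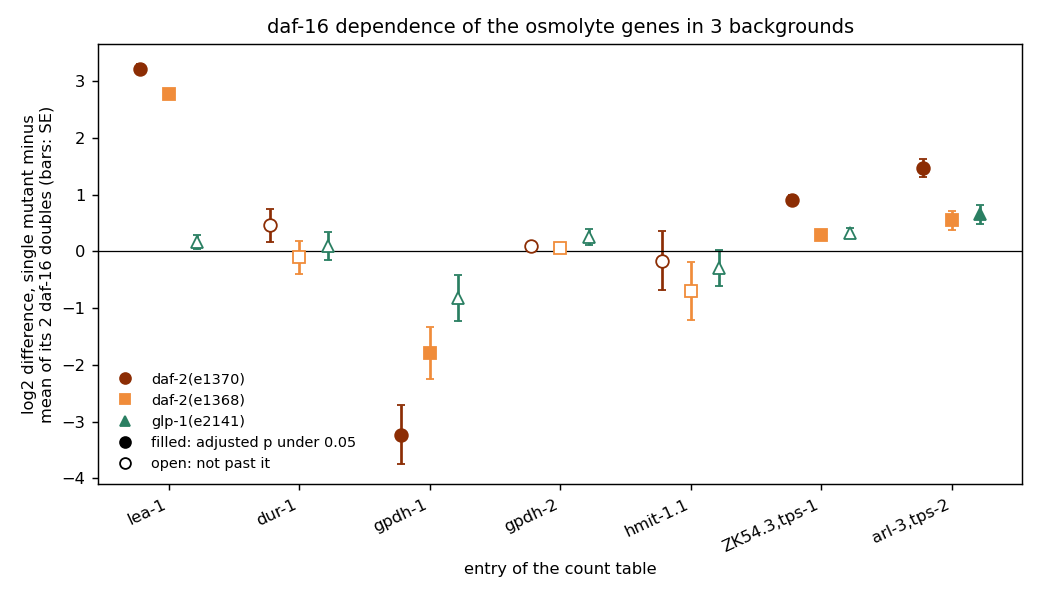
Log2 difference of each mutant from the mean of its daf-16 doubles for the 5 genes and the 2 shared entries, for each of the 3 mutants, with bars of 1 SE and filled symbols where the adjusted p passed 0.05. lea-1 stands at 3.22 for daf-2(e1370), 2.78 for daf-2(e1368) and 0.16 for glp-1(e2141), gpdh-1 stands at -3.23, -1.79 and -0.82 in the same order, and gpdh-2, dur-1 and hmit-1.1 have open symbols in all 3 backgrounds.

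Against WT, 3 of the 5 genes were called in daf-2(e1370), lea-1 and gpdh-2 higher and gpdh-1 lower, at a background of 18.2% of entries, and lea-1 alone in daf-2(e1368), at 2.06%. The doubles of daf-2(e1370) had 1 gene called against WT, lea-1, at 1.3% of entries. The doubles of daf-2(e1368) had 0 by edgeR and 0 by DESeq2, with lea-1 at an unadjusted p of 0.00146 as the 1 gene under 0.05, at 0.425% of entries. These comparisons share the WT libraries.

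The next comparison set the daf-2 alleles against each other. lea-1 was higher in daf-2(e1370) than in daf-2(e1368) by 0.38 ± 0.10 (edgeR adjusted p = 0.00885), the 1 called gene of 5 at a background of 8.43% of entries, although the daf-2(e1370) libraries at 1810 to 2700 CPM overlap those of daf-2(e1368) at 1420 to 2060 CPM. ZK54.3,tps-1 was higher by 0.74 ± 0.10 (edgeR adjusted p = 2.95e-06), and arl-3,tps-2 stood at 0.60 ± 0.20 (edgeR adjusted p = 0.0535). This arl-3,tps-2 difference was called by DESeq2 (DESeq2 adjusted p = 0.0258), with RLE factors, with loci at 0 kept, with only those strains and with the replicate block. Its call also appeared without replicates 0 and 1 of the daf-2(e1370) doubles, without daf-2(e1368) replicate 3 and without daf-2(e1370) replicate 1. The daf-16 effect was larger in daf-2(e1370) by 0.44 ± 0.12 for lea-1 (edgeR adjusted p = 0.0236), by 0.62 ± 0.12 for ZK54.3,tps-1 (edgeR adjusted p = 0.00134) and by 0.92 ± 0.24 for arl-3,tps-2 (edgeR adjusted p = 0.0193), where 4.71% of entries differed. For gpdh-1 the effects differed by -1.44 ± 0.63 without a call (edgeR adjusted p = 0.184). The lea-1 calls of both kinds were lost when all 50 libraries were fitted together or replicate 2 was left out, the difference of effects also without daf-2(e1368) replicate 0 or 4 or daf-2(e1370) replicate 2, and the lea-1 difference between the alleles in a fit of only those strains (edgeR adjusted p = 0.115). The difference of effects for arl-3,tps-2 lost its call without daf-2(e1368) replicate 1, at 0.72 without replicates 0 and 1 of the daf-2(e1370) doubles (edgeR adjusted p = 0.0612) and without replicates numbered 2 (edgeR adjusted p = 0.052).

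Set against glp-1(e2141), the daf-16 effect in daf-2(e1370) differed for lea-1 and gpdh-1 of the 5 genes, at a background of 7.24% of entries. It was also larger by 0.57 ± 0.11 for ZK54.3,tps-1 (edgeR adjusted p = 0.000337) and by 0.81 ± 0.23 for arl-3,tps-2 (edgeR adjusted p = 0.0241). The arl-3,tps-2 difference stood at 0.78 (edgeR adjusted p = 0.0503) without the 3 glp-1 family libraries that stand apart, and its call also ended without glp-1(e2141) replicate 1 or 4 and, at 0.64, with the 4 libraries numbered 0 and 1 of the daf-2(e1370) doubles left out (edgeR adjusted p = 0.0959).

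The 2 daf-16 alleles gave no called difference in any of the 5 genes. In the doubles of daf-2(e1370), edgeR called 0, DESeq2 0 and 0 had an unadjusted p under 0.05, at a background of 0.204% of entries. The same counts, 0, 0 and 0, held in the doubles of daf-2(e1368), at 0.0934%. In the doubles of glp-1(e2141) edgeR and DESeq2 called 0 and 1 gene, hmit-1.1, had an unadjusted p under 0.05, at -0.95 ± 0.36 for mg54 minus mu86 (edgeR adjusted p = 0.941), at 0.0192% of entries. For lea-1 in the doubles of daf-2(e1370), mg54 minus mu86 was 0.01 ± 0.10.

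Across all 10 strains on 1 common scale, lea-1 was highest in daf-2(e1370) at 2110 ± 361 CPM, then in daf-2(e1368) at 1690 ± 278 CPM, and then at 351 ± 47.7 CPM in glp-1(e2141) (SD, n = 5 each). The libraries of daf-2(e1368) and glp-1(e2141) do not overlap. From there the order ran on without a gap through the glp-1 doubles at 329 and 323 CPM and WT at 296 CPM to the daf-2 doubles at 235 to 250 CPM. gpdh-1 ran in another order, from 102 ± 54, 86.1 ± 36.1 and 51.0 ± 25.9 CPM in the mu86 double of glp-1(e2141), its mg54 double and glp-1(e2141) itself, through 18.0 to 9.65 CPM in the daf-2 doubles and 8.05 ± 3.51 CPM in WT, to 3.22 ± 2.79 CPM in daf-2(e1368) and 1.96 ± 1.04 CPM in daf-2(e1370). In that order every neighbouring pair overlaps, as it does for gpdh-2, hmit-1.1 and dur-1.

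The 3 glp-1 strains held the top 3 places for gpdh-1, gpdh-2, hmit-1.1, dur-1 and both shared entries, and places 3 to 5 for lea-1. For hmit-1.1 they averaged 135, 76.5 and 70.2 CPM, and 6.04 to 15.5 CPM were the averages of the daf-2 family strains. For dur-1 they averaged 33.8 to 36.1 CPM, the daf-2(e1370) libraries read 10.3 to 15.8 CPM, and the other 6 daf-2 family strains averaged 9.3 to 11.1 CPM. The shared entries separate without overlap at 2 steps, between the lowest glp-1 strain and daf-2(e1370) and between daf-2(e1370) and daf-2(e1368). The families differ in temperature, germline and marker sums at once, and the part of each in these levels cannot be told apart.

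Strain means most like each gene over the 10 strains were picked by Pearson r on log2 CPM among 8036 entries that name 1 gene. lea-1 was most like pdk-1, the kinase that acts with daf-2 upstream of DAF-16, at r = 0.918, and clec-76, a C-type lectin gene, at r = 0.902. gpdh-1 was most like dod-23, a gene named as downstream of daf-16, and CELE_R10E8.1, both at r = 0.994. hmit-1.1 was most like B0302.5 at 0.995 and CELE_C32F10.4 at 0.993, dur-1 like lec-2, a galectin gene, at 0.999 and F40H3.2 at 0.998, and gpdh-2 like acdh-7, an acyl-CoA dehydrogenase gene, at 0.967 and R12E2.8 at 0.965. Most of these values follow the gap between the families, and strains share rearing within a family, so r is given as a description of 10 points.

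The long spans of lea-1 and gpdh-1 hold other genes. Of 46 other tested entries in the lea-1 bundle, 9 were called higher and 5 lower in daf-2(e1370) against its doubles, where 27.6% of all entries were called in either direction, and 1 higher and 1 lower in daf-2(e1368), where 5.01% were. Of 20 in the gpdh-1 bundle, 5 were higher in daf-2(e1370) and 2 lower. Of 40 in the ZK54.3,tps-1 bundle, 8 were higher and 5 lower in daf-2(e1370) and 2 higher in daf-2(e1368), at the same background shares.

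Other genes of the same pathways were taken from lists of 41 genes, of which 32 have an entry of their own and the paralogues pgph-1 and pgph-3 share 1. Of these 33 entries 28 could be tested in the daf-2 family. In daf-2(e1370) against the mean of its doubles 10 were higher and 8 lower, where 14.3% and 13.3% of all entries were, with a median of 0.29 against 0.02 over all entries. Fitted on the 3 strains of the contrast alone, the 8 lower became 5. In daf-2(e1368) 5 were higher and 2 lower, at 3.00% and 2.01% of all entries, and in glp-1(e2141) 4 of 29 were higher and 1 lower, at 3.41% and 1.62%. Against WT 9 were higher and 5 lower in daf-2(e1370), where 18.2% of entries were called in either direction, and 4 higher and 1 lower in daf-2(e1368), where 2.06% were. The lists were chosen with earlier results of these data known. With lists of 3 to 14 tested entries, the counts below are read against these shares and carry no test of their own.

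Of 4 desiccation and dauer genes tested, 3 were higher in daf-2(e1370), 2 in daf-2(e1368) and 2 in glp-1(e2141), where 14.3%, 3.00% and 3.41% of all entries were higher. hsp-12.6, a small heat shock protein gene, averaged 4.97 ± 1.81 CPM in daf-2(e1370), against 1.24 ± 0.333 CPM in the mg54 double and 0.942 ± 0.325 CPM in the mu86 double (SD, n = 5 each), and rose by 2.25 ± 0.22 (edgeR adjusted p = 9.32e-10). It also rose by 1.36 ± 0.22 in daf-2(e1368) (edgeR adjusted p = 5.64e-05) and by 1.45 ± 0.24 in glp-1(e2141) (edgeR adjusted p = 0.00205). hsp-12.3, another small heat shock protein gene, rose by 1.78 ± 0.20 in daf-2(e1370) and 0.91 ± 0.21 in glp-1(e2141), and stood at 0.29 ± 0.20 in daf-2(e1368) (edgeR adjusted p = 0.633). djr-1.2, a DJ-1 family glyoxalase gene, averaged 1.13 ± 0.436 CPM in daf-2(e1370), against 0.0762 ± 0.0496 and 0.106 ± 0.086 CPM in the mg54 and mu86 doubles. From these very low levels it was higher in daf-2(e1370) by 3.71 ± 0.40 (edgeR adjusted p = 9.33e-09), with a rise of 1.79 ± 0.47 in daf-2(e1368) (edgeR adjusted p = 0.0181).

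Glycerol turnover and transport split in direction, with 5 of 13 tested higher and 4 lower in daf-2(e1370), 2 higher and 1 lower in daf-2(e1368), and 1 of 14 higher in glp-1(e2141). The 9 called of 13 in daf-2(e1370) stand beside 27.6% of all entries, and those in daf-2(e1368) and glp-1(e2141) beside 5.01% and 5.02%. aqp-1, an aquaglyceroporin gene, averaged 150 ± 33.6 CPM in daf-2(e1370), against 42.6 ± 13 CPM in the mg54 double and 47.9 ± 9.38 CPM in the mu86 double. It rose by 1.73 ± 0.14 (edgeR adjusted p = 1.13e-11), and by 0.51 ± 0.14 in daf-2(e1368) (edgeR adjusted p = 0.0238), and stood at 0.15 ± 0.14 in glp-1(e2141). The aquaporin genes aqp-3 and aqp-2 rose by 1.08 ± 0.26 and 0.83 ± 0.22 in daf-2(e1370), and R11F4.1, a glycerol kinase gene, by 0.93 ± 0.25 (edgeR adjusted p = 0.00453). In daf-2(e1370), aqp-3 at 1.01 to 5.88 CPM and aqp-2 at 31.4 to 83.7 CPM overlapped both doubles, while R11F4.1 at 90 to 158 CPM lay above them. Against WT, daf-2(e1370) had no call for aqp-3, aqp-2 or R11F4.1 (edgeR adjusted p = 0.119, 0.346 and 0.0929). Other aquaporin genes fell in daf-2(e1370) against its doubles, aqp-4 with -0.82 (edgeR adjusted p = 3.18e-07), aqp-10 with -0.4 and aqp-11 with -0.46. The entry of pgph-1 and pgph-3 fell with -0.56 (edgeR adjusted p = 0.0263). In daf-2(e1368) aqp-4 fell with -0.42 (edgeR adjusted p = 0.0101). These 4 lower entries were named after their values were seen. pgph-2, listed as F44E7.2, encodes a phosphatase of the glycerol-3-phosphate and phosphoglycolate type, and rose by 0.83 ± 0.12 in daf-2(e1368) (edgeR adjusted p = 1.71e-05), while it stood at 0.31 ± 0.13 in daf-2(e1370) and -0.89 ± 0.36 in glp-1(e2141) without a call.

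Of the trehalose turnover genes 4 could be tested, all trehalases, which split trehalose into glucose. In daf-2(e1370) 1 was higher and 2 lower, where 14.3% and 13.3% of all entries were. In daf-2(e1368) 1 was lower, where 2.01% of all entries were. tre-2 fell, with a log2 difference of -0.66 ± 0.06 in daf-2(e1370) (edgeR adjusted p = 5.21e-10) and -0.41 ± 0.06 in daf-2(e1368) (edgeR adjusted p = 1.51e-05), and tre-2 stood at -0.24 ± 0.08 in glp-1(e2141) (edgeR adjusted p = 0.0957). tre-3 fell with -0.33 ± 0.08 in daf-2(e1370), and tre-4 rose by 0.68 ± 0.11 there (edgeR adjusted p = 1.71e-05). These 3 trehalases were named after their values were seen.

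For inositol transport and synthesis 3 genes could be tested. hmit-1.3, a sister of hmit-1.1, rose in all 3 backgrounds, by 1.04 ± 0.10 in daf-2(e1370) (edgeR adjusted p = 9.41e-10), 0.53 ± 0.10 in daf-2(e1368) (edgeR adjusted p = 0.000792) and 0.35 ± 0.08 in glp-1(e2141) (edgeR adjusted p = 0.0151). Its levels were 80.5 ± 8.03 CPM in daf-2(e1370), against 40.8 ± 8.87 and 37.6 ± 5.47 CPM in the mg54 and mu86 doubles. Of the 4 osmotic stress regulators tested 1 was called, in daf-2(e1370) and in glp-1(e2141), where 27.6% and 5.02% of all entries were called. This was osm-7, whose loss raises gpdh-1 in worms. It fell by 0.89 on the log2 scale in daf-2(e1370) (edgeR adjusted p = 0.0148) and by 0.63 in glp-1(e2141) (edgeR adjusted p = 0.0207), the second a call that ended without the 3 glp-1 family libraries that stand apart and without glp-1(e2141) replicate 0, 1 or 4.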

How the data were processed

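Polyadenylated RNA of whole animals was sequenced as paired ends of 100 cycles. The authors deposited 1 table of estimated counts per gene entry and library. The submitters' processing notes list TopHat2 2.0.9 with Bowtie2 2.1.0, Cufflinks and Cuffdiff 2.1.1, FastQC 0.10.1 and cutadapt, and the build ce10. Their settings and the strand of the kit are not given in the sources used, so reads of overlapping or antisense genes cannot be told apart. Non-zero values were whole to within 0.02 in 72.2% of cases, and each was rounded. The 314 entries without a gene name (0.187% to 0.48% of fragments) were left out, and entries of the same name and locus were summed, which left 33458. Loci at 0 in all libraries of a strain while another strain of the family averaged at least 1000 fragments were left out as not estimated. That removed 915 entries at 10 loci for the daf-2 family, and 164 at 1 locus for the other.

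edgeR 4.0.16 in R 4.3.3 (TMM factors, filterByExpr, robust quasi-likelihood fit) was fitted to the 35 daf-2 family libraries, to the 15 glp-1 family libraries, and to all 50 for the difference of daf-16 effects between daf-2(e1370) and glp-1(e2141). Entries with a Benjamini-Hochberg adjusted p under 0.05 over all entries tested were called. The script was tested on simulated data. Intervals are 95%, from the t distribution with the degrees of freedom of the fit, and reflect the spread between libraries. DESeq2 1.42.0, other scaling, filters and sample sets, a replicate block and leaving out single libraries were alternatives. Replicates of a strain differed beyond sampling noise, so each library counts as 1 sample.

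The replicate numbers of the labels were checked for pairing, taken as shown where same-numbered libraries correlated in their deviations at r over 0.1 in every pair. This held for daf-2(e1368) with its mg54 double (r 0.126 to 0.774) and for the mg54 with the mu86 double of daf-2(e1370) (r 0.635 to 0.849), and by that rule in no other comparison. daf-2(e1370) with its doubles and daf-2(e1368) with its mu86 double had positive r in every pair, with the lowest at 0.017, 0.0298 and 0.0669. Same-numbered libraries of daf-2(e1368) averaged r = 0.426 with the mu86 double and 0.388 with the mg54 double, so the rule does not show that mg54 alone is paired. The replicate block was an effect of each replicate number shared by all strains of a fit. The main fits held strain alone, so their SEs, intervals and adjusted p take no account of such pairing. This includes the contrasts with the mean of the doubles.

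The 7 genes, the lists and the tests were chosen with earlier results of these data known. Other pathway genes were named as the 10 with the largest absolute difference of a mutant from its doubles among the 19 called in at least 1 background, and for likeness the 2 entries with the highest r. The trehalase genes and the lower glycerol turnover and transport entries were named outside that rule. Gene names for entries listed by sequence name came from the WBcel235 annotation.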

Additional observations from a re-analysis of the deposited data

Results flagged for a closer look

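In 10 of 70 sets of 5 libraries, the highest or lowest library stood off from the rest by a share of the range above Dixon's critical value of 0.71, where chance gives about 1 in 20. Of these, 7 concern replicate 2 of a daf-2 family strain. For gpdh-1 replicate 2 was the highest library in daf-2(e1368) with 8.49 CPM (ratio 0.718), in its mg54 double with 22.2 CPM (ratio 0.85) and in its mu86 double with 30.7 CPM (ratio 0.85). For hmit-1.1 replicate 2 was highest in the mg54 double of daf-2(e1368) with 28.3 CPM (ratio 0.846), in the mu86 double with 51.2 CPM (ratio 0.855) and in WT with 12.5 CPM (ratio 0.726). gpdh-2 was lowest in replicate 2 of the mg54 double of daf-2(e1368) with 249 CPM (ratio 0.751). The other 3 were hmit-1.1 in daf-2(e1370) replicate 3 with 15.7 CPM (ratio 0.769), hmit-1.1 in glp-1(e2141) replicate 0 with 132 CPM (ratio 0.817), and lea-1 in replicate 0 of the mg54 double of daf-2(e1368), the lowest with 196 CPM (ratio 0.724).

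The daf-16 effect differed between daf-2(e1370) and daf-2(e1368) by a log2 difference of 0.44 for lea-1, 0.62 for ZK54.3,tps-1 and 0.92 for arl-3,tps-2, each by an interaction contrast in edgeR. Between daf-2(e1370) and glp-1(e2141) it differed by 3.04 for lea-1, -2.46 for gpdh-1, 0.57 for ZK54.3,tps-1 and 0.81 for arl-3,tps-2.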

How the results depend on the processing

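Over 133 pairs of a gene or shared entry and a comparison, 2954 values were recomputed, of which 2818 kept their side of the threshold, 92 lost the call, 44 gained it and 0 called values changed sign. Among the 2818, 84 are uncalled values whose sign changed. Numbers of genes called, out of 5, moved as follows. daf-2(e1370) against its doubles had 2, and 3 with the replicate block and, through gpdh-2, without replicates 0 and 1 of the doubles. daf-2(e1370) against WT had 3, and 2 with all 50 libraries in 1 fit, with only those strains and on leaving out any of 4 single libraries. daf-2(e1368) against its doubles had 2, and 1 in a fit of only those strains and 1 to 2 on leaving out single libraries. daf-2(e1368) against WT had 1, and 3 with the replicate block, 2 without replicates numbered 2 and 1 to 2 on leaving out single libraries. The doubles of daf-2(e1370) against WT had 1, and 3 with the replicate block, 0 with all 50 libraries in 1 fit, 0 without replicates numbered 2 and 0 to 1 on leaving out single libraries. daf-2(e1370) against daf-2(e1368) had 1, and 0 with all 50 libraries, with only those strains and without replicates numbered 2. The difference of their daf-16 effects had 1, and 2 with the replicate block, 0 with all 50 libraries, 0 without replicates numbered 2 and 0 to 1 on leaving out single libraries. The replicate block also called more entries over the whole table. For daf-2(e1370) against its doubles 3246 became 5660, and for daf-2(e1368) against WT 243 became 666. For the doubles of daf-2(e1370) against WT 153 became 646, and for the difference of effects 555 became 3668. In fits of only those strains 2147 became 1678 for daf-2(e1370) against WT, and 993 became 748 between the daf-2 alleles. The cause of these changes was not tested. The replicate block called dur-1 in daf-2(e1370) against its doubles at 0.59 (edgeR adjusted p = 0.0149), where the numbers do not pair the libraries in every pair.

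Entries called over the whole table ranged widely: 3246 for daf-2(e1370) against its doubles (2094 to 5660), 590 for daf-2(e1368) (407 to 1229), 522 for glp-1(e2141) (272 to 915), 2147 for daf-2(e1370) against WT (1678 to 3344), 243 for daf-2(e1368) (165 to 666), 153 and 50 for the doubles of daf-2(e1370) and daf-2(e1368) against WT (90 to 646 and 28 to 86), 993 for daf-2(e1370) against daf-2(e1368) (748 to 2963), 555 and 894 for the differences of daf-16 effects (348 to 3668 and 574 to 1264), and 24, 11 and 2 between daf-16 alleles (7 to 76, 11 to 99 and 1 to 28). For the 2 daf-16 alleles in daf-2(e1370), whose numbers pair, the block called 56 entries and 0 of the 5 genes. Listed pathway genes lower in daf-2(e1368) were 4 without replicates 0 and 1 of the daf-2(e1370) doubles. Those higher in glp-1(e2141) were 2 without glp-1(e2141) replicate 0 or 2, and lower ones 0 to 4. Replicates numbered 2, and the 3 glp-1 family libraries, were left out after the data were seen. gpdh-1 rests on 8 to 70 fragments per daf-2(e1370) library, with an SE of 0.52 on its log2 difference from the doubles.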
